A study of Mus musculus with 14 samples.

Results

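The 10 genes described here handle heme and iron: Cd163, Slc48a1, Hmox1, Blvra, Blvrb, Fth1, Ftl1, Slc40a1, Slc11a1 and Tfrc. They and the other lists below were chosen with earlier results of these data known, so counts called among them only describe them. The rule itself held no measured value: non-control probes were taken whose RefSeq accession belongs to 1 of these symbols. This gave 11 of 41174 probes and 10 of the 17178 named genes, since Slc48a1 has 2 probes and every other gene has 1. Their RNA was measured by 1-colour microarray in 4 groups of sorted cells from male YARG mice, aged 12 to 16 weeks, in which a fluorescent reporter marks cells that express arginase-1 (Arg1).

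Mice received a controlled cortical impact, a model of traumatic brain injury (TBI), and gave cells on day 1 after it. Injured brain supplied Arg1+ macrophages (n = 4) and Arg1- macrophages (n = 4), and their blood supplied post-TBI monocytes (n = 3). Normal monocytes (n = 3) came from the blood of untreated mice. All 4 groups carry the reporter, the mice were perfused before the brain was taken, and no array of uninjured brain or of sham surgery was analysed here, so every brain value comes from injured brain. The labels do not say that replicates are separate animals, so p-values measure only the spread between these samples, which may be technical.

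Macrophages clear spilled blood. Haemoglobin bound to haptoglobin enters through the receptor CD163, and red cells enter whole by phagocytosis. HRG1, the product of Slc48a1, moves heme out of the lysosome, and heme oxygenase 1 opens the ring to release iron, carbon monoxide and biliverdin. BLVRA, the form that makes bilirubin IX-alpha in adults, reduces this biliverdin to bilirubin. BLVRB, biliverdin reductase B, is also known as a flavin reductase. The freed iron is held in ferritin, a shell of heavy (Fth1) and light (Ftl1) chains, or leaves the cell through ferroportin (Slc40a1). NRAMP1 (Slc11a1) carries metal ions out of the phagosome, and the transferrin receptor (Tfrc) brings transferrin-bound iron in.

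Levels are given as log2 of a probe's processed signal over the 75th percentile of its array, so 0 means as bright as that percentile, and the lowest possible level is -4.32. Levels of different probes are not compared. Differences are log2 differences between group means from 1 limma fit over the 14 arrays, ± the standard error, with Benjamini-Hochberg adjusted p-values over all 21977 tested probes or genes, and a difference was called at an adjusted p under 0.05. In bulk samples, more cells of a type and more RNA per cell cannot be told apart. The 75th percentile itself ran from 119.4 to 418.5 intensity units, and the share of probes well above background from 50.4% to 68.69%. Among 7 tested monocyte and macrophage markers, including Ptprc, Itgam and Csf1r, each was above background on at least 1 array of every group, and their summed ratio lay between 158.3 and 272.7 on all arrays. Single markers did shift. Ptprc was lower in Arg1+ than in Arg1- cells (-0.71, adjusted p = 0.0192) and lower in both than in post-TBI monocytes (-1.75 and -1.03), Cd14 (2.05 and 1.61) and Fcgr1 (1.88 and 1.45) were higher in both than in post-TBI monocytes, and Adgre1 was lower in Arg1- cells (-0.96). Their part in the results was not tested.

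The scanner software flags spots of uneven brightness, and those spots were left out of the fit. Flagging rose with brightness, from 0.0016% of values at log2 levels below 0 to 21.24% between 4 and 6 and 26.11% above 6, and it fell on the brightest genes of heme handling. It took Fth1 on all 14 arrays, Ftl1 on 7, Hmox1 on 6, and Slc11a1 and Slc48a1 on 4 each. Hence 7 of the 10 genes were tested, and Hmox1, Fth1 and Ftl1 are given from a second fit with flagged spots kept (22230 tested), an alternative chosen after seeing the data. The authors' deposited log2 values, another alternative, hold all 10 as well.

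RNA of Cd163 (haemoglobin receptor), Slc48a1 (heme transporter) and Blvrb (biliverdin reductase B) was higher in Arg1+ than in Arg1- brain macrophages. These 3 of the 7 tested genes differed by 1.28 to 1.39 log2 units, where 2.14% of all tested genes were called higher (5.04% in either direction). With flagged spots kept, Hmox1, Fth1 and Ftl1 joined them, 6 of 10 against 2.34% of all, and in the authors' deposited values 5 of 10 were called (those 6 without Fth1), against 1.86%. For 8 of the 10 genes the lowest Arg1+ array lay above the highest Arg1- array, where 7.51% of all genes did so. Blvra and Tfrc were the exceptions, and neither was called between these groups. Of the 8, Slc40a1 was separated only at levels near or below background. The median difference was 0.59 over the 7 tested genes and 1.09 over all 10 with flagged spots kept, against 0.00 over all tested genes in both fits.

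**Figure D1:**
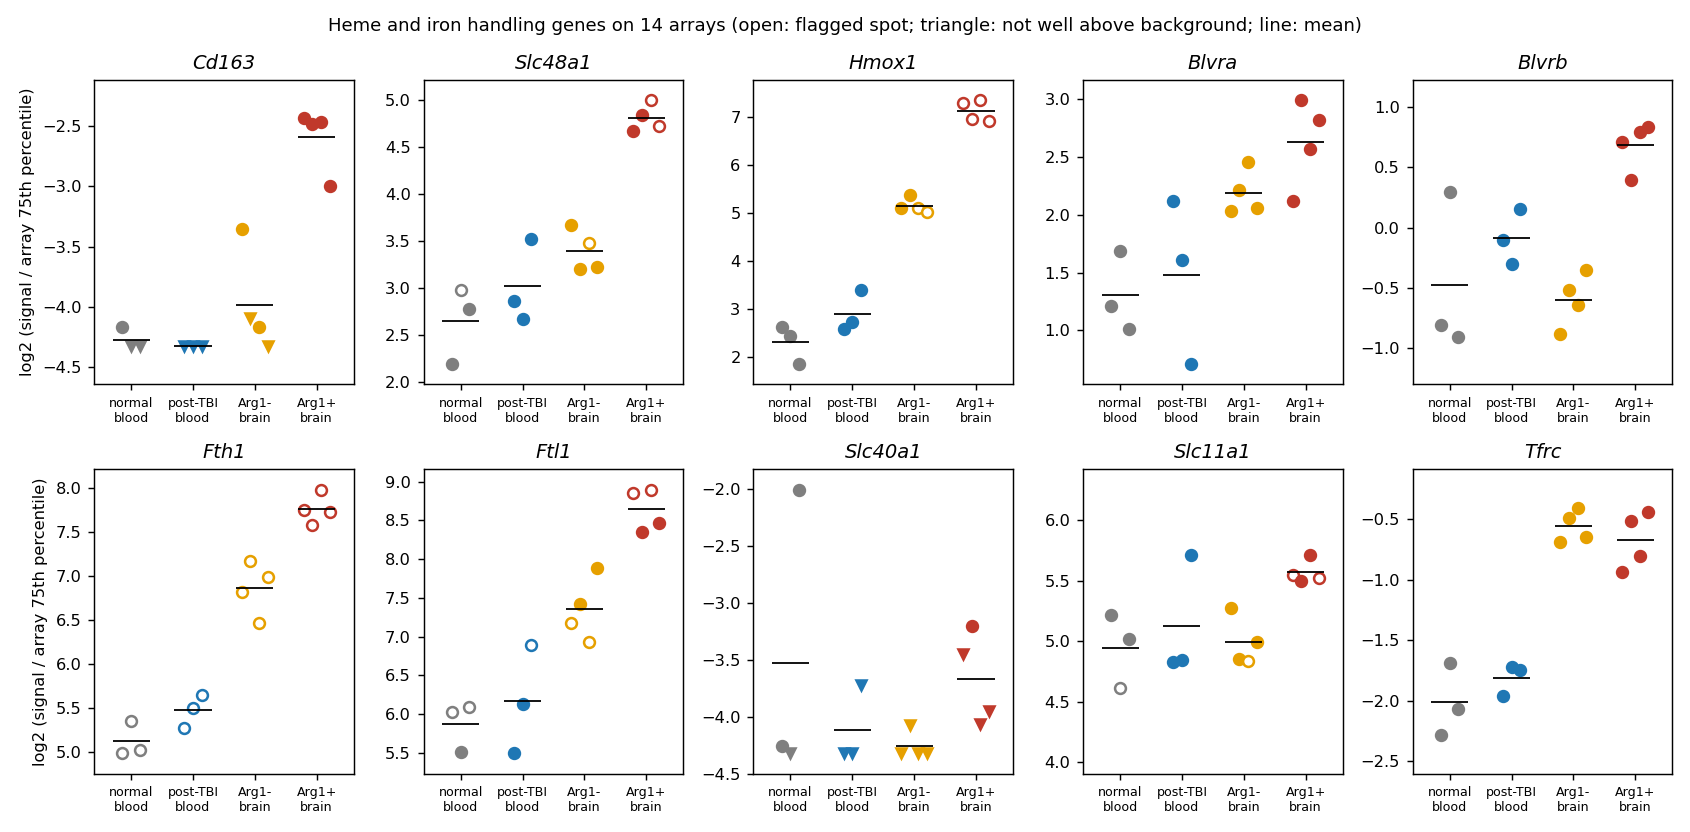
Level of each gene on each array, as log2 of the signal over the array's 75th percentile, in normal blood (n = 3), post-TBI blood (n = 3), Arg1- brain (n = 4) and Arg1+ brain (n = 4). Open symbols are flagged spots, triangles are spots not well above background and lines are means over all spots of a group; each panel has its own axis. Hmox1 runs from 1.86 in the lowest normal blood array to 7.36 in the highest Arg1+ array, and the 4 Arg1+ arrays of Cd163 stand above all 10 others.

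Cd163, the scavenger receptor for haemoglobin and haptoglobin, was dim everywhere and was measured well above background on all 4 Arg1+ arrays only. Its level was -2.44, -2.49, -2.47 and -2.996 on Arg1+ replicates 1 to 4. On Arg1- replicates 1 to 4 it was -3.36, -4.09, -4.16 and -4.32, with replicates 1 and 3 well above background. All 3 post-TBI monocyte arrays stood at the lowest possible level of -4.32, and normal monocyte replicates 2, 3 and 4 read -4.17, -4.32 and -4.32, with replicate 2 alone above background. Arg1+ arrays thus did not overlap with any other group, while Arg1- arrays overlapped with blood. Arg1+ exceeded Arg1- by 1.39 ± 0.22 (adjusted p = 0.00148), and exceeded post-TBI monocytes at least 3.30-fold on this scale (adjusted p = 3.06e-05). The size depends on how dim spots are treated. The difference between Arg1+ and Arg1- was 0.62 (adjusted p = 0.0169) in the authors' deposited table and 0.57 (adjusted p = 0.43) with normexp background correction, which ended the call. The same settings gave 0.94 and 0.84 against post-TBI monocytes, both called, and raising the lowest ratio to 0.1 gave 0.72 in both comparisons, also called.

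The promoter of Cd163 is shown because its window holds no CG pair at all, while the windows of the other 6 genes that have one hold from 5 (Slc11a1) to 25 (Tfrc). It covers the 250 bases before the RefSeq start site on GRCm38.p6, chr6:124304401-124304650, plus strand, and capitals mark a CCAAT box read on the opposite strand, 57 bases before the start.
Cd163: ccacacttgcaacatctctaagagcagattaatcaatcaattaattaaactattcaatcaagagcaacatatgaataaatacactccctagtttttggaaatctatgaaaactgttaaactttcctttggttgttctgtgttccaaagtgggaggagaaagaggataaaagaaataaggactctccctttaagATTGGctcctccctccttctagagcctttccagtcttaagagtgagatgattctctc

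Slc48a1, whose product HRG1 exports heme from the lysosome, was read by a bright probe and a dimmer one. The bright probe gave 4.67, 4.85, 5.003 and 4.72 on Arg1+ replicates 1 to 4 (replicates 3 and 4 flagged) and 3.67, 3.21, 3.48 and 3.22 on Arg1- replicates 1 to 4 (replicate 3 flagged). In blood it gave 2.86, 2.67 and 3.52 on post-TBI replicates 1, 3 and 4 and 2.19, 2.97 and 2.77 on normal replicates 2, 3 and 4, the 2.97 flagged. Every Arg1+ array stood above every array of the other groups, and post-TBI replicate 4 lay among the Arg1- arrays. Arg1+ exceeded Arg1- by 1.39 ± 0.28 (adjusted p = 0.0176) and by 1.42 ± 0.21 with flagged spots kept (adjusted p = 0.000896). The call without flagged spots was lost without Arg1- replicate 2 (adjusted p = 0.0545), without Arg1- replicate 4 (adjusted p = 0.056) and with no filter on dim probes (adjusted p = 0.076).

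The second probe of Slc48a1 was never flagged. It gave 1.61, 1.23, 1.68 and 1.47 on Arg1+ replicates 1 to 4 against 0.08, 0.13, 0.33 and 0.11 on Arg1-, a difference of means of 1.33. Both probes thus put Arg1+ above Arg1- without overlap and by a like amount. They parted on brain against blood. Arg1+ exceeded post-TBI monocytes by 1.74 ± 0.28 (adjusted p = 0.000537) on the bright probe, and the means of the second differed by 0.96. Arg1- minus post-TBI monocytes was 0.35 ± 0.25 (adjusted p = 0.346) on the bright probe and -0.38 on the second, so no direction is given for it. Without Arg1+ replicate 1 or 2 or normal replicate 2 or 4, too few unflagged spots of the bright probe remained, the second stood in, and the Arg1+ difference from post-TBI monocytes became 0.92, 1.04, 0.96 and 0.96, all called. The mean of both probes, where flagged arrays hold the dim probe alone, gave 0.95 (adjusted p = 0.229) for Arg1+ minus Arg1- and 0.55 (adjusted p = 0.36) for Arg1+ minus post-TBI monocytes.

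Hmox1, heme oxygenase 1, the inducible enzyme that opens the heme ring, differed most of the 10 genes. Its level was 7.30, 6.96, 7.36 and 6.92 on Arg1+ replicates 1 to 4, all flagged, and 5.11, 5.39, 5.11 and 5.03 on Arg1- replicates 1 to 4, of which replicates 3 and 4 were flagged. In blood no spot was flagged, and it was 2.59, 2.73 and 3.41 on post-TBI replicates 1, 3 and 4 and 2.64, 2.45 and 1.86 on normal replicates 2, 3 and 4. The brain groups overlapped neither with each other nor with blood, while the blood groups overlapped and post-TBI replicate 4 was the highest of them. With flagged spots kept Arg1+ exceeded Arg1- by 1.97 ± 0.21, or 3.93-fold (adjusted p = 8.23e-05). Arg1- exceeded post-TBI monocytes by 2.25 ± 0.23 (adjusted p = 2.83e-06) and Arg1+ exceeded them by 4.22 ± 0.23, or 18.7-fold (adjusted p = 1.92e-09). The authors' deposited table gave 1.76 (adjusted p = 6.79e-05), 2.15 (adjusted p = 1.45e-06) and 3.92 (adjusted p = 8.42e-10). The order Arg1+, Arg1-, blood therefore held for Hmox1 on both scales, and post-TBI and normal monocytes did not differ beyond their spread (0.59 ± 0.24, adjusted p = 0.673).

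The biliverdin reductases took different patterns. Blvra, the form that makes bilirubin IX-alpha in adults, was at 2.12, 2.99, 2.57 and 2.82 on Arg1+ replicates 1 to 4 and at 2.04, 2.22, 2.46 and 2.06 on Arg1- replicates 1 to 4. It was at 2.11, 1.61 and 0.71 on post-TBI replicates 1, 3 and 4 and at 1.21, 1.68 and 1.01 on normal replicates 2, 3 and 4. The brain groups overlapped (0.43 ± 0.27, adjusted p = 0.463). Arg1+ arrays all lay above post-TBI arrays, by 1.15 ± 0.29 (adjusted p = 0.0051), which was 0.76 without post-TBI replicate 4, still called. Arg1- minus post-TBI was 0.71 ± 0.29 (adjusted p = 0.0706), and passed with the slide block (0.61, adjusted p = 0.0498) and without post-TBI replicate 1 (1.03, adjusted p = 0.0109).

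Blvrb, biliverdin reductase B, also known as a flavin reductase, was highest in Arg1+ cells, each of whose arrays lay above every other array. It was at 0.71, 0.39, 0.79 and 0.83 on Arg1+ replicates 1 to 4 and at -0.88, -0.52, -0.64 and -0.35 on Arg1- replicates 1 to 4, with a gap between the groups. Blood lay between them or with the Arg1- cells, at -0.10, -0.30 and 0.15 on post-TBI replicates 1, 3 and 4 and at -0.80, 0.29 and -0.91 on normal replicates 2, 3 and 4. Arg1+ exceeded Arg1- by 1.28 ± 0.24 (adjusted p = 0.00575). Arg1- minus post-TBI was -0.52 ± 0.26, with no overlap of arrays and no call (adjusted p = 0.149). Arg1+ exceeded post-TBI by 0.76 ± 0.26 (adjusted p = 0.0289). That last call is thin. Its adjusted p rose to 0.0518 without Arg1+ replicate 1, 0.065 without Arg1+ replicate 3, 0.0676 without Arg1+ replicate 4, 0.0599 without post-TBI replicate 1, 0.113 without post-TBI replicate 3 and 0.0582 with no filter on dim probes.

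The promoters of the reductases are shown as the 250 bases before the RefSeq start site on GRCm38.p6. In Blvra, chr2:127070407-127070656, plus strand, capitals mark the core of the antioxidant response element, read on the opposite strand 49 bases before the start, and a CCAAT box 16 bases before it. In Blvrb, chr7:27447728-27447977, plus strand, capitals mark GCGTG, the core of the hypoxia response element, 133 and 42 bases before the start.
Blvra: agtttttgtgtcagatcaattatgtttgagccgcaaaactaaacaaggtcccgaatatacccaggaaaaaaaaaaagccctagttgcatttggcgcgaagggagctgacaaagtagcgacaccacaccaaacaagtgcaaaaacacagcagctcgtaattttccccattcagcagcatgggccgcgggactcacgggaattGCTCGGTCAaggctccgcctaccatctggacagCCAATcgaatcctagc
Blvrb: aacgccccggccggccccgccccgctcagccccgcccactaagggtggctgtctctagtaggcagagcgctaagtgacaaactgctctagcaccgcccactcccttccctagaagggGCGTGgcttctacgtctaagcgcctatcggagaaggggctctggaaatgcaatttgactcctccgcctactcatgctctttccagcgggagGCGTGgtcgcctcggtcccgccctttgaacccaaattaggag

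Ferritin RNA rose in steps from blood to Arg1- to Arg1+ cells. Fth1, the heavy chain that oxidises iron for storage, was flagged on all 14 arrays. It was at 7.75, 7.58, 7.98 and 7.72 on Arg1+ replicates 1 to 4 and at 6.82, 7.16, 6.47 and 6.99 on Arg1- replicates 1 to 4. In blood it was at 5.27, 5.49 and 5.65 on post-TBI replicates 1, 3 and 4 and at 4.98, 5.34 and 5.02 on normal replicates 2, 3 and 4. Arg1+, Arg1- and blood arrays formed 3 sets without overlap, and only the blood groups ran into each other. With flagged spots kept Arg1+ exceeded Arg1- by 0.90 ± 0.18 (adjusted p = 0.0103) and post-TBI monocytes by 2.29 ± 0.20 (adjusted p = 3.84e-07), and Arg1- exceeded post-TBI by 1.39 ± 0.20 (adjusted p = 8.09e-05). The first of these rests on the scaling. It was 0.54 (adjusted p = 0.0502) in the authors' deposited table and 0.51 (adjusted p = 0.051) with quantile normalization, and was not called in either.

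Ftl1, the light chain that helps the iron core form, was at 8.86, 8.35, 8.90 and 8.47 on Arg1+ replicates 1 to 4, with replicates 1 and 3 flagged. Arg1- replicates 1 to 4 read 7.18, 7.42, 6.93 and 7.89, again with replicates 1 and 3 flagged. Blood read 5.49, 6.13 and 6.89 on post-TBI replicates 1, 3 and 4 and 6.03, 5.51 and 6.09 on normal replicates 2, 3 and 4. The brain arrays lay above all blood arrays and Arg1+ above Arg1-, although post-TBI replicate 4, at 6.89, came within 0.038 of the lowest Arg1- array. Arg1+ exceeded Arg1- by 1.29 ± 0.29 with flagged spots kept (adjusted p = 0.0179) and by 0.96 in the authors' deposited table (adjusted p = 0.0382). The adjusted p was 0.055 without Arg1- replicate 1, 0.0658 without Arg1- replicate 3, 0.0596 without Arg1+ replicate 3 and 0.0852 with quantile normalization (difference 0.84). From unflagged spots alone, 2 per group in a fit of these 2 groups, the difference was 0.76 (adjusted p = 0.255). Against post-TBI monocytes Arg1+ was higher by 2.47 ± 0.32 (adjusted p = 1.8e-05) and Arg1- by 1.18 ± 0.32 (adjusted p = 0.00936). The latter was 0.84 without post-TBI replicate 1 (adjusted p = 0.0504) and 1.84 from unflagged spots alone in a fit of those 2 groups (adjusted p = 0.0095).

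The promoters of both ferritin chains are shown next to each other. Each is the 250 bases before the RefSeq start site on GRCm38.p6. In Fth1, chr19:9982396-9982645, plus strand, capitals mark GCGTG on the opposite strand 50 bases before the start and a CCAAT box on the opposite strand 7 bases before it. In Ftl1, chr7:45459887-45460136, minus strand, they mark CCAAT boxes on the opposite strand 78 and 34 bases before the start, with GCGTG on the opposite strand 47 bases before it between them.
Fth1: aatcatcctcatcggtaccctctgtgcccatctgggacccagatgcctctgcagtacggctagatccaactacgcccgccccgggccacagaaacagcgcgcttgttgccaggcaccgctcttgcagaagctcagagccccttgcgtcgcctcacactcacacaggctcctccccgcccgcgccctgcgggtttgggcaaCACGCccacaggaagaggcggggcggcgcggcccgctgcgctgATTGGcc
Ftl1: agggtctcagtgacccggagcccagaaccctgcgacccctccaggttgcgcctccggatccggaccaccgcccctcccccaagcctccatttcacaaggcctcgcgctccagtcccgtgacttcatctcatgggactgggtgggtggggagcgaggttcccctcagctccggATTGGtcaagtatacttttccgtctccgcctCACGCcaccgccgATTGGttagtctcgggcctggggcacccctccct

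Slc40a1, the iron exporter ferroportin, was near or below background nearly everywhere. It was well above background on normal replicates 2 and 4 and on Arg1+ replicate 2, and on no post-TBI and no Arg1- array. Its level was -3.45, -3.20, -4.07 and -3.95 on Arg1+ replicates 1 to 4 and -4.32, -4.07, -4.32 and -4.32 on Arg1- replicates 1 to 4. Post-TBI replicates 1, 3 and 4 read -4.32, -4.32 and -3.72, and normal replicates 2, 3 and 4 read -4.26, -4.32 and -2.01, so that normal replicate 4 alone stood high. No comparison was called, and Arg1+ minus Arg1- was 0.59 ± 0.40 (adjusted p = 0.525), with a 95% interval from -0.27 to 1.45. The standard error comes from a spread shared by all 4 groups. Normal arrays spread most (standard deviation 1.32), against 0.41 on Arg1+ arrays and 0.12 on Arg1- arrays, most of which stood at the lowest possible level.

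Slc11a1, the phagosomal metal transporter NRAMP1, was bright and nearly level. It was at 5.55, 5.50, 5.72 and 5.52 on Arg1+ replicates 1 to 4 (replicates 1 and 4 flagged) and at 5.27, 4.86, 4.83 and 4.996 on Arg1- replicates 1 to 4 (replicate 3 flagged). Blood read 4.83, 4.85 and 5.71 on post-TBI replicates 1, 3 and 4 and 5.21, 4.61 and 5.02 on normal replicates 2, 3 and 4, the 4.61 flagged. Arg1+ arrays all lay above Arg1- arrays, but by little, 0.57 ± 0.29 (adjusted p = 0.352). Post-TBI replicate 4 was as high as the Arg1+ arrays. With it Arg1+ minus post-TBI was 0.48 ± 0.29 (adjusted p = 0.219), and without it 0.77 (adjusted p = 0.0151).

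Tfrc, the transferrin receptor, was higher in both brain groups than in blood and was not called between the brain groups. It was at -0.93, -0.52, -0.81 and -0.44 on Arg1+ replicates 1 to 4 and at -0.69, -0.49, -0.41 and -0.64 on Arg1- replicates 1 to 4. Post-TBI replicates 1, 3 and 4 read -1.97, -1.72 and -1.75, and normal replicates 2, 3 and 4 read -2.28, -1.69 and -2.07. The brain groups overlapped, as did the blood groups, and all 8 brain arrays lay above all 6 blood arrays. Arg1+ exceeded post-TBI by 1.14 ± 0.21 (adjusted p = 0.000449) and Arg1- by 1.25 ± 0.21 (adjusted p = 0.000275), the latter 0.82 with normexp, still called. Arg1+ minus Arg1- was -0.12 ± 0.19 (adjusted p = 0.868), with a 95% interval from -0.53 to 0.29.

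The promoter of Tfrc is shown as that of a gene not called between the brain groups. It is the 250 bases before the RefSeq start site on GRCm38.p6, chr16:32608646-32608895, plus strand. Capitals mark a CCAAT box 124 bases before the start, and GCGTG on the opposite strand 117 and 64 bases before it.
Tfrc: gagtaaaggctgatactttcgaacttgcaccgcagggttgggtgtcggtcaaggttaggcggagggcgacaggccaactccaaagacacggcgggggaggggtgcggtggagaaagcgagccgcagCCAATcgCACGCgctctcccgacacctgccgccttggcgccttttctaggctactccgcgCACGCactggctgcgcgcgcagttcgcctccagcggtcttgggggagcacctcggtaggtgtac

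Promoter windows were given for 7 of the 10 genes, and the matches above are descriptions of letters, not of binding sites. Their part in any difference between groups was not tested. The antioxidant response core TGACNNNGC was in Blvra alone, and in 10.16% of all 32851 RefSeq windows of this length. GCGTG was in Blvrb, Fth1, Ftl1 and Tfrc and in 28.16% of all windows. The other hypoxia core searched, ACGTG, was in none of the 7 and in 16.57% of all. GAGGAAGT, a core bound by the myeloid factor PU.1, was in none of the 7 and in 2.44% of all. CCAAT, added after the sequences were seen, was in Blvra, Cd163, Fth1, Ftl1 and Tfrc and in 33.85% of all. All were searched on both strands.

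**Figure D2:**
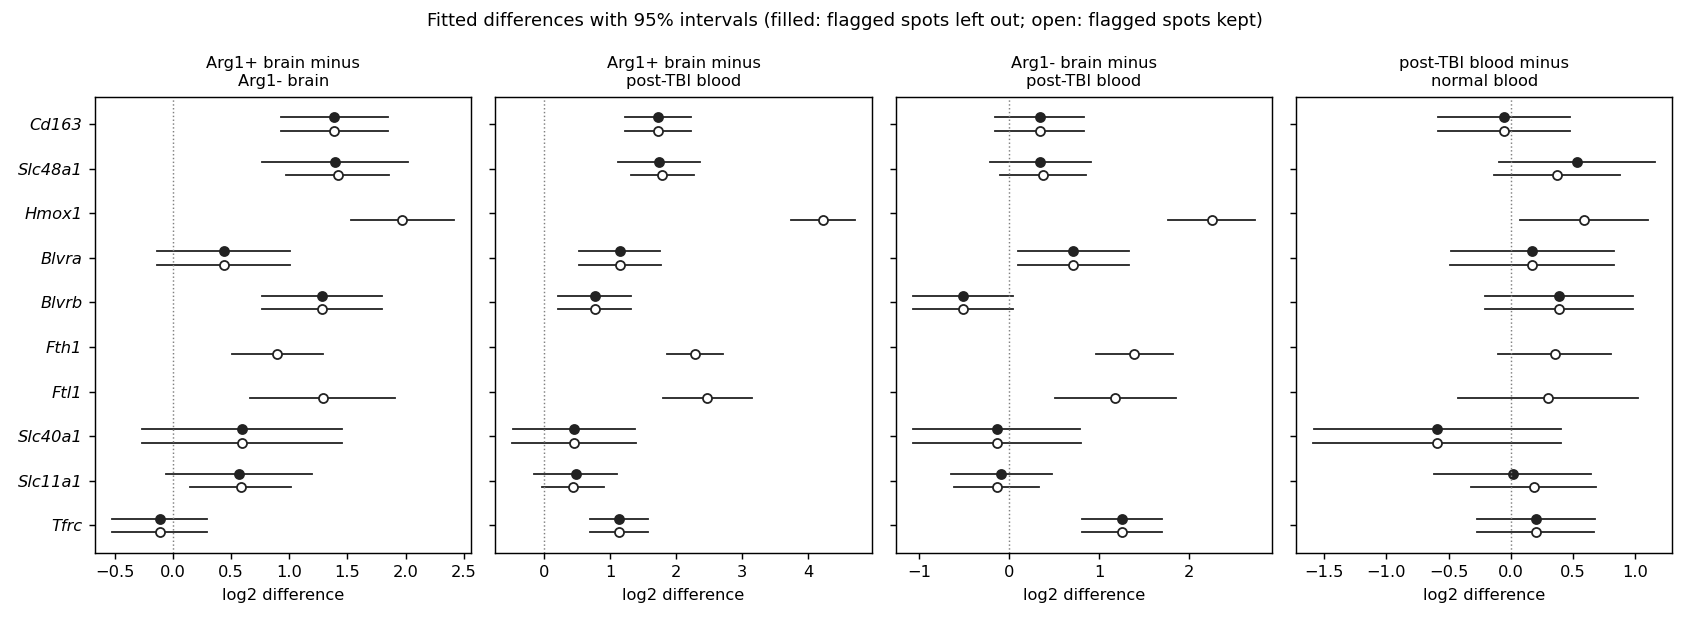
Fitted log2 difference of each gene with its 95% interval in the 4 comparisons, each panel on its own axis; filled points leave flagged spots out and open points keep them. Hmox1, Fth1 and Ftl1 have open points only, Hmox1 reaches 4.22 in Arg1+ brain minus post-TBI blood, and intervals of Slc40a1 and Slc11a1 hold 0 in every panel except that of Slc11a1 with flagged spots kept in Arg1+ minus Arg1-.

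Against post-TBI monocytes, Arg1+ cells had 5 of 7 tested genes higher (Cd163, Slc48a1, Blvra, Blvrb and Tfrc) and Arg1- cells 1 of 7 (Tfrc), and neither had any lower. Of all tested genes 19.9% were called higher in the first comparison (39.9% in either direction) and 17% in the second (33.4%). With flagged spots kept the counts were 8 of 10 against 20.1%, and 4 of 10 (Hmox1, Fth1, Ftl1 and Tfrc) against 17.2%. The authors' deposited table also gave 8 and 4 of 10, against 19% and 16.6%. Both comparisons use the same 3 post-TBI arrays. The post-TBI arrays were fully below the Arg1+ arrays for 8 genes (19.3% of all genes) and fully below the Arg1- arrays for 4 (18.9% of all). The genes without overlap in the latter were those 4 called ones, and Blvrb lay fully the other way.

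Blood monocytes gave no call among the 10 genes between post-TBI and normal mice, with or without flagged spots, where 0.15% of all tested genes were called with limma (0.148% with flagged spots kept). Hmox1 was the single gene of the 10 with an unadjusted p under 0.05 (0.0273, flagged spots kept). In the authors' deposited table Hmox1 (0.0192) and Fth1 (0.0416) were. No gene of the 10 was free of overlap between these groups with post-TBI higher, where 4.38% of all genes were. Intervals were wide: for Tfrc the difference was 0.20 with a 95% interval from -0.27 to 0.67, and for Blvra 0.17 with an interval from -0.48 to 0.83.

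**Figure D3:**
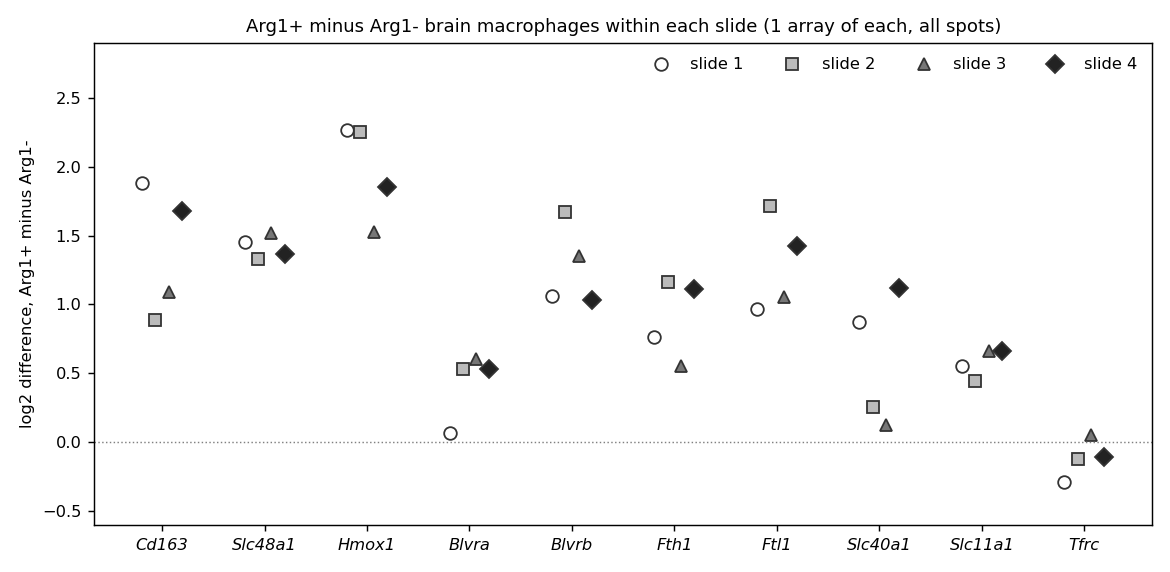
Difference between the 1 Arg1+ and the 1 Arg1- array on each of the 4 slides, in log2 units with all spots kept, for the 10 genes; each symbol is a slide. Values run from 1.53 to 2.26 for Hmox1, from 0.07 to 0.60 for Blvra and from -0.29 to 0.06 for Tfrc. Those of Slc40a1 come from levels near or below background.

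The arrays lay on 4 slides, each with 1 Arg1+ and 1 Arg1- array and 3 of them with 1 array of each blood group. Within slides Arg1+ minus Arg1- was 1.53 to 2.26 for Hmox1, 1.33 to 1.52 for Slc48a1, 1.04 to 1.67 for Blvrb, 0.97 to 1.72 for Ftl1, 0.89 to 1.88 for Cd163 and 0.56 to 1.16 for Fth1. It was 0.44 to 0.66 for Slc11a1, 0.07 to 0.60 for Blvra and -0.29 to 0.06 for Tfrc. For Slc40a1 it was 0.12 to 1.12, at levels near or below background. Arg1+ minus post-TBI within 3 slides was 3.95 to 4.56 for Hmox1 and 2.26 to 2.46 for Fth1. Post-TBI minus normal within 3 slides changed sign between slides for 7 of the 10 genes. The exceptions were Hmox1, at 0.09 to 1.54, and Cd163 and Slc40a1, whose highest value was 0.

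Other genes of heme and iron handling were taken from 6 lists of 67 genes, of which 54 were tested. Between Arg1+ and Arg1- cells 7 of 54 were higher and 2 lower, with a median of 0.16, where 2.14% of all tested genes were higher and 2.9% lower. Fbxl5, the iron sensor that marks iron regulatory protein 2 for destruction, was higher by 1.03 ± 0.15 (adjusted p = 0.000824), and Flvcr1, a heme exporter, by 0.93 ± 0.17 (adjusted p = 0.00388). Flvcr1 was the single call among 9 tested genes of heme capture and breakdown beyond the 10, whose median was -0.03. Against post-TBI monocytes Flvcr1 was called lower in Arg1- cells, at -1.19 to -0.995 with single arrays left out. It was not called in Arg1+ cells against post-TBI monocytes. From the list of targets of NRF2, the regulator of antioxidant genes, 3 of 7 were higher: Gclc and Txnrd1, which serve glutathione and thioredoxin, by 0.82 and 0.77, and Srxn1, sulfiredoxin, by 0.71. The median of that list was 0.71. Its member Gclm differed by 1.43 ± 0.45 (adjusted p = 0.0863). Aco1, iron regulatory protein 1, and Alad of heme synthesis were also called, each at 0.54. The calls of Srxn1, Aco1 and Alad are thin. All 3 were lost with quantile normalization (adjusted p = 0.0966 to 0.105), with normexp (adjusted p = 0.176 to 0.261), with the replicate number as a block (adjusted p = 0.059 to 0.0975) and in the authors' deposited table (adjusted p = 0.0772 to 0.0932). Those of Alad and Aco1 were also lost with no intensity trend (adjusted p = 0.052 and 0.0661), and that of Aco1 with the mean of all probes (adjusted p = 0.385). The call of Alad was lost without any single array but Arg1+ replicate 1 and post-TBI replicates 1 and 4 (adjusted p up to 0.146), and that of Aco1 without any single array but normal replicate 4 and post-TBI replicates 1 and 4 (adjusted p up to 0.129). That of Srxn1 was lost without Arg1- replicate 2, 3 or 4 or Arg1+ replicate 2 or 3 (adjusted p up to 0.0894).

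The 2 lower genes were Ltf, lactoferrin (-4.27 ± 0.72, adjusted p = 0.00269), and Lcn2, lipocalin 2 (-3.34 ± 0.67, adjusted p = 0.00891), secreted proteins that bind iron or iron carriers. Both are products of neutrophil granules. Of 11 tested neutrophil markers, which include both, 8 were lower in Arg1+ cells and 1, Mmp8, was higher. Their summed ratio was 6.01 to 15.3 on Arg1+ arrays, 31.4 to 140.3 on Arg1- arrays, 15.9 to 95.2 on post-TBI and 28.7 to 193.6 on normal arrays, with Elane at background on all Arg1+ arrays. Retnlg weighs heavily in the blood sums, with log2 levels up to 7.56 on normal and 6.23 on post-TBI arrays. Against post-TBI monocytes, Arg1- cells had 7 of the 11 markers higher and 1 lower (17% and 16.3% of all tested genes). Arg1+ cells had 1 higher and 3 lower (19.9% and 20% of all). The part of neutrophils in the difference between Arg1+ and Arg1- cells was not tested. Iron uptake had no other call, and limma called 0 of 10 genes of mitochondrial iron (1 at an unadjusted p under 0.05). In post-TBI against normal monocytes it called 0 of 54 (6 at an unadjusted p under 0.05), and the authors' deposited values also gave 0.

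**Figure D4:**
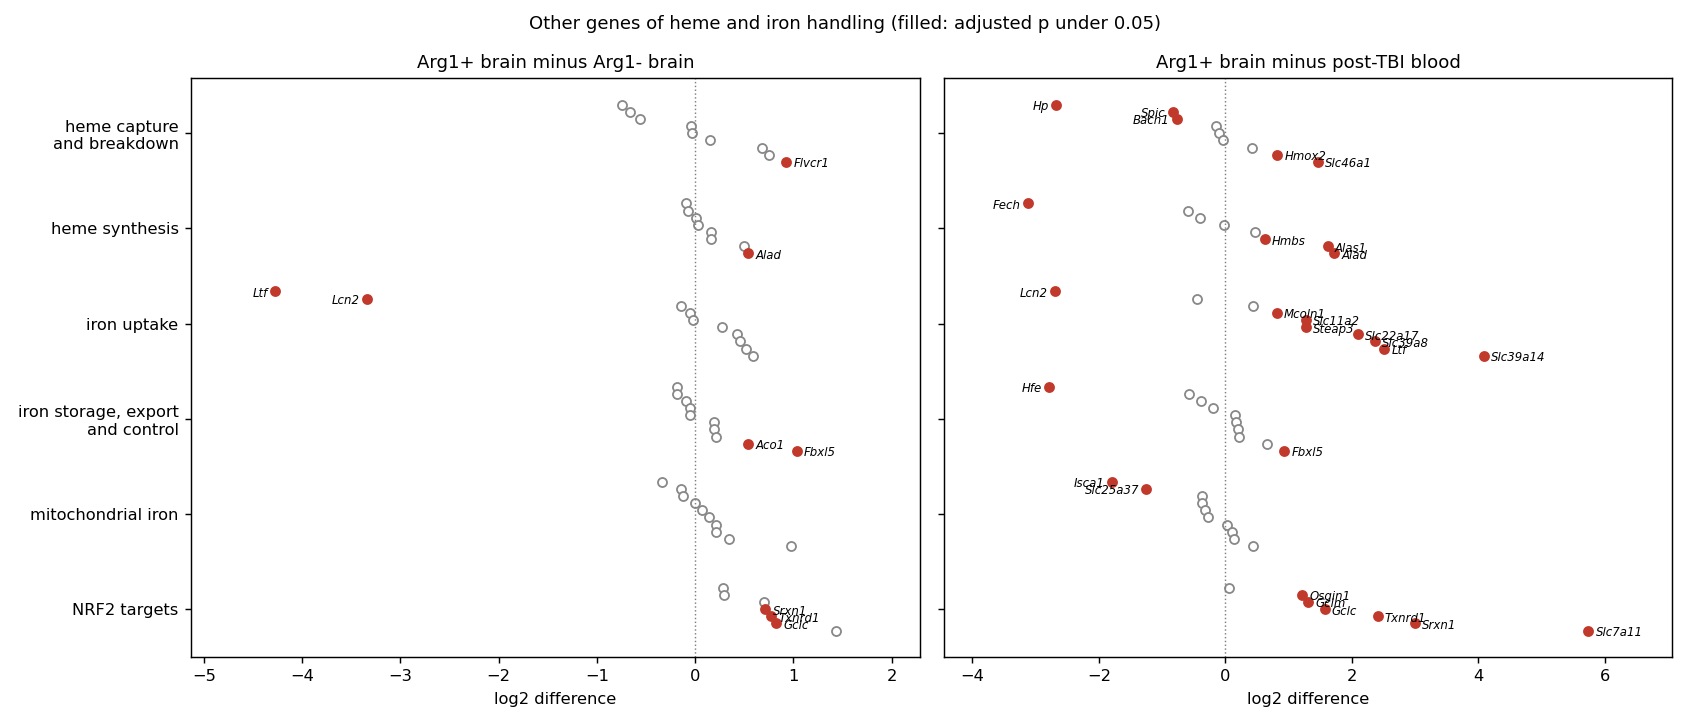
Fitted log2 differences of the 54 tested genes of 6 lists, for Arg1+ brain minus Arg1- brain (left) and Arg1+ brain minus post-TBI blood (right), each panel on its own axis. Filled points with names were called; 7 lie above and 2 below 0 on the left, and 19 above and 8 below 0 on the right, from Fech at -3.12 to Slc7a11 at 5.74.

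Brain and blood cells differed more widely. Against post-TBI monocytes, Arg1+ cells had 19 of the 54 genes higher and 8 lower, where 19.9% of all tested genes were higher and 20% lower. Arg1- cells had 15 higher and 7 lower, where 17% of all were higher and 16.3% lower. The counts of single lists below are to be read against the same shares. The 2 comparisons share the post-TBI arrays. In iron uptake 7 of 10 were higher and 1, Lcn2, lower in Arg1+ cells (median 1.27, against -0.03 over all genes). In Arg1- cells 6 of 10 were higher (median 0.72, against -0.02). Both counts of higher genes include Ltf, like Lcn2 a product of neutrophil granules. The Ltf call in Arg1+ cells (2.51 ± 0.78, adjusted p = 0.0177) is thin. It was lost with the lowest ratio at 0.1 (adjusted p = 0.0504) and with no filter on dim probes (adjusted p = 0.071). Leaving out Arg1+ replicate 2 (adjusted p = 0.0525) or post-TBI replicate 1 (adjusted p = 0.103) ended it too. Slc39a14, which carries zinc and iron that is not bound to transferrin, was higher by 4.09 ± 0.21 in Arg1+ and 4.24 ± 0.21 in Arg1- cells (adjusted p = 1.32e-09 and 1.75e-09). Slc39a8, its relative, was not above background on any post-TBI array and at least 5.16-fold and 3.77-fold higher on this scale. These sizes rest on how dim spots are treated: with normexp the values of Slc39a8 were 2.05-fold and 1.59-fold, with the lowest ratio at 0.1 they were 2.58-fold and 1.89-fold, and in the authors' deposited table they were 2.16-fold and 1.72-fold, all called. Among NRF2 targets 6 and 5 of 7 were higher, with medians of 1.57 and 0.93. The list of heme capture and breakdown had 2 of 9 higher and 3 lower (Hp, Spic and Bach1) in Arg1+ cells (median -0.09). In Arg1- cells it had 1 higher and 3 lower, Flvcr1 and Spic among the lower ones (median -0.21). The calls of Spic (-0.83 and -0.81) are thin. Both were lost with normexp (adjusted p = 0.448 and 0.135) and with replicate number as block (adjusted p = 0.0509 and 0.0674). That of Bach1 (-0.77) was lost without Arg1+ replicate 4 (adjusted p = 0.053) or post-TBI replicate 1 (adjusted p = 0.098). Slc7a11, the cystine transporter, was likewise at background in post-TBI monocytes and at least 53.4-fold and 32.9-fold higher on this scale. For Slc7a11 normexp gave 10.4-fold and 7.01-fold, the lowest ratio at 0.1 gave 27.0-fold and 16.7-fold, and the authors' deposited table gave 15.3-fold and 9.90-fold, all called.

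In heme synthesis the first enzymes and the last went opposite ways. Alas1, the rate-limiting first enzyme outside red cells, was higher by 1.62 ± 0.22 in Arg1+ and 1.45 ± 0.22 in Arg1- cells, and Alad, the next, by 1.72 ± 0.16 and 1.18 ± 0.16. Fech, ferrochelatase, which inserts the iron, was lower (-3.12 ± 0.44 and -3.62 ± 0.44). Also lower in both were Slc25a37, mitoferrin 1, which brings iron into mitochondria (-1.25 and -2.22), and Isca1 of iron-sulfur cluster assembly (-1.80 and -2.01). The first value of Slc25a37 was -0.71 without post-TBI replicate 4 and no longer called (adjusted p = 0.0879), and its call was also lost with no filter on dim probes (adjusted p = 0.0538). Hp, haptoglobin, was lower (-2.68 and -1.93), as was Hfe, a partner of the transferrin receptor (-2.79 and -2.74). Hmox2, the constitutive heme oxygenase, was higher by 0.82 and 0.67, against 4.22 and 2.25 for Hmox1.

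Red cell RNA moved with these contrasts. All 5 tested red cell markers of 12 on the list, Hbb-bt, Alas2, Slc4a1, Epb42 and Gata1, were lower in both brain groups than in post-TBI monocytes, with log2 differences from -7.80 (Alas2) to -1.86 (Gata1). Their summed ratio was 498.4 to 706.8 on post-TBI arrays, 205.0 to 558.6 on normal arrays, 14.1 to 27.6 on Arg1- arrays and 11.5 to 35.3 on Arg1+ arrays. Epb42 was at background on all Arg1+ arrays. None of the 5 was called with limma between Arg1+ and Arg1- cells (0 at an unadjusted p under 0.05) or between post-TBI and normal monocytes (3 at an unadjusted p under 0.05). The part of red cell RNA in the differences of the heme and iron genes between brain and blood was not tested.

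Markers of other cells in the sort were measured beside the Arg1+ and Arg1- comparison. Border macrophage markers, among which Cd163 is often counted, had 1 of 7 higher in Arg1+ cells (Folr2, 1.70 ± 0.25) and 1 lower (Clec10a, -1.56 ± 0.23), with summed ratios of 63.4 to 77.5 on Arg1+, 40.9 to 49.5 on Arg1-, 6.97 to 10.3 on post-TBI and 9.04 to 15.1 on normal arrays. Of 10 microglia markers 0 were called with limma between the brain groups (5 at an unadjusted p under 0.05). Their summed ratio was 57.3 to 88.97 on Arg1+, 48.1 to 66.2 on Arg1-, 23.6 to 26.3 on post-TBI and 25.2 to 27.2 on normal arrays. Of 7 dendritic cell markers 6 were lower in Arg1+ cells, at 4.32 to 16.0 against 64.3 to 102.7, with Kmo at background on all Arg1+ arrays. Of the remaining markers, 1 of 5 for astrocytes and 1 of 5 for neurons were higher while limma called 0 of 4 for endothelium and 0 of 4 for oligodendrocytes (1 each at an unadjusted p under 0.05). Against post-TBI monocytes these markers shifted too, where 19.9% of all tested genes were higher in Arg1+ and 17% in Arg1- cells. Microglia markers had 7 of 10 higher and 1 lower in each brain group. Border macrophage markers had 5 of 7 higher in each, with 1 lower in Arg1+ cells. Astrocyte markers had 5 and 2 of 5 higher, and neuron markers 3 and 2 of 5. Dendritic cell markers had 6 of 7 lower in Arg1+ and 1 of 7 higher in Arg1- cells. The part of any of these cells in the differences of the 10 genes was not tested.

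Over the 14 arrays Hmox1, Fth1 and Ftl1 followed each other, while Slc11a1 reached at most 0.721 with any other of the 10. The level of Hmox1 had a Pearson r of 0.985 with that of Fth1, which was its nearest among the 10, and Fth1, Ftl1 and Hmox1 each had another of the 3 as nearest. Of all named genes Akr1a1 was most like both Hmox1 and Fth1 (r = 0.987 for each), followed by Hs1bp3 (0.986) for Hmox1 and Pgam1 (0.987) for Fth1. Por and Gapdh were most like Ftl1 (0.985 and 0.984), Glul and Tmem140 most like Slc48a1 (0.976 and 0.974), and P4ha2 and Idua most like Cd163 (0.967 and 0.957). Clic4 and Slc16a1 were most like Tfrc (0.975 and 0.973), Trim32 and Nme1 most like Blvra (0.975 and 0.974), Slc22a4 and Cyb5a most like Blvrb (0.923 and 0.90), and Mtmr9 and Retreg2 most like Slc11a1 (0.948 and 0.943). Slc40a1 stood alone, with at most 0.261 to any other of the 10, and 0.854 to Fer and 0.838 to Ccl20. These values only describe the 14 arrays, which share 4 groups and 4 slides.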

How the data were processed

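The 10 members, the other gene lists and the tests were chosen with earlier results of these data known. Per the file headers, the deposited scanner files of 14 Agilent 1-colour (Cy3) arrays come from Feature Extraction 10.7.3.1 and hold processed and median spot intensity values and other per-spot values such as 0 or 1 flags; the array's annotation was made on mm9. The authors' own log2 values, deposited as a separate table, have column medians of 6.16 to 6.19. Within each array these had the ranks of the median spot intensity (Spearman 0.99999 to 1.0), so direction is settled, while their background treatment and scaling are not stated. Per the submitters' processing notes limma was used, with no version or step given.

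Here each array's processed intensity was divided by its 75th percentile over non-control probes, ratios under 0.05 were raised to 0.05, and log2 was taken. Flagged (non-uniform or population outlier) spots were dropped. Probes needed 2 usable arrays per group and a signal well above background on 3 of 14 arrays. The brightest kept probe stood for a symbol (27620 probes, 21977 features, 12973 with a symbol, named through RefSeq accessions on GRCm38.p6). limma 3.58.1 in R 4.3.3 fitted all 4 groups (lmFit, eBayes with trend, two-sided tests on 10 residual degrees of freedom) and was tested on simulated data. Where a side was at background on every array, the change is a lower bound on this scale only. In it each dim array counts at the higher of its lowest level well above background and the probe's own. No spot was saturated, and 3 or 4 arrays per group limit the precision. The files hold no mean spot signal, so the normexp alternative used median spot and background intensities. Other alternatives were quantile normalization, a floor of 0.1, no filter on dim probes, the mean of all probes, slide or replicate number as a block, only the 2 groups compared, no intensity trend, the authors' table and leaving out each array. Genes named are the 10 members, up to 3 called genes per list, direction and comparison, and the 2 genes most correlated with each member; Gclm and the cell type markers were named after their values were seen. A red cell marker of the original list is not reported here.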

Additional observations from a re-analysis of the deposited data

Results flagged for a closer look

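In groups of 4 arrays, 64 sets of values were searched for 1 array far from the others, and 4 were found where chance gives about 1 in 20. Cd163 on Arg1+ replicate 4 was at -2.996 while the other 3 Arg1+ arrays were at -2.49 to -2.44; without that array Arg1+ minus Arg1- was higher, not lower, than with it. Aco1 on Arg1+ replicate 3 was at 2.06, against 1.70 to 1.72 on the others. Slc39a14 on Arg1- replicate 3 was at 1.87, against 2.05 to 2.08, and Txnrd1 on the same array was at 1.72, against 1.51 to 1.53.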

How the results depend on the processing

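No called difference changed sign under any alternative. Of 887 values of the 10 genes under alternatives, 20 lost and 3 gained a call, and 15 uncalled ones changed sign; of 1142 values of the named list genes 83 lost their call. Between Arg1+ and Arg1- cells 3 of the 10 genes were called, 6 with flagged spots kept and 5 in the authors' table; against post-TBI monocytes Arg1+ cells had 5, and 8 in each of those settings. For Arg1- cells the count of 1 became 4 in each of them, 3 in a fit of the 2 groups compared and 2 with slide as a block. Leaving out single arrays gave 2 to 3, 4 to 6 and 1 to 2 for these 3 counts and 0 to 0 between the blood groups. List genes called ran from 6 to 12, 23 to 28, 18 to 22 and, between the blood groups, 0 to 1, with 1 under normexp. Whether replicate numbers pair the arrays cannot be told from these values, as the 4 same-numbered pairs of Arg1+ and Arg1- arrays are few. Their residuals correlated at -0.464 to 0.401, those of arrays on 1 slide at 0.041 to 0.591. With the replicate number as a block the 3 counts stayed at 3, 5 and 1, and list genes called between Arg1+ and Arg1- fell from 9 to 6. Dim signal limits Cd163 and Slc40a1, and flagged spots limit Hmox1, Fth1 and Ftl1.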
